A study of Mus musculus with 24 samples.

Results

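The genes described here are 9 trace amine receptor genes of the mouse, Taar1, Taar2, Taar3, Taar4, Taar5, Taar6, Taar7b, Taar7d and Taar9. They are 9 of the 15 protein-coding Taar genes on chromosome 10, and 9 of 21938 protein-coding genes in the annotation (GENCODE vM21, mm10). They were selected on the number of ATAC-seq peaks in their windows, the gene and 20 kb on each side, which had appeared higher in erythroid cells. The windows join into one locus of 229.2 kb that also covers Taar7a, Taar7e, Taar7f, Taar8a, Taar8b, Taar8c and the pseudogene Taar7c-ps. Because peak numbers in colony forming unit erythroid cells (CFUE) and erythroblasts (ERY) against other primary cells chose the genes, that difference is given as a description with no test. In chromosome order Taar1 lies at chr10:23920356-23921469, Taar2 at chr10:23938572-23941583, Taar3 at chr10:23949558-23950589, Taar4 at chr10:23960494-23961537, Taar5 at chr10:23970706-23971719, Taar6 at chr10:23984609-23985646, Taar7b at chr10:23999939-24001015, Taar7d at chr10:24027222-24028298 and Taar9 at chr10:24108488-24109534. Taar6 and Taar9 are on the minus strand and the other members on the plus strand.

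Trace amine receptors are G protein-coupled receptors that detect amines. Taar1 is known mainly from the brain, where it modulates monoamine signalling, and the other family members are olfactory receptors of sensory neurons in the nose, each neuron using one receptor gene. The olfactory members signal through the G protein subunit encoded by Gnal and the adenylyl cyclase encoded by Adcy3. They arose by tandem gene duplication, and the Taar7 and Taar8 genes are the most recent copies.

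ATAC-seq, in which a transposase tags open DNA, had been carried out on 12 cell types with 2 libraries each. Adult male C57BL6 mice gave bone marrow LSK cells (Lin-, Sca1+, Kit+, the compartment that holds stem cells), common myeloid progenitors (CMP), granulocyte and macrophage progenitors (GMP), megakaryocyte and erythroid progenitors (MEP), CFUE and ERY, and from the megakaryocyte branch colony forming units (CFUMK) and immature cells (iMK). Monocytes (MON) and neutrophils (NEU) came from peripheral blood of the same strain, and no primary group was treated. G1E is an erythroid-committed line without GATA1, the master factor of erythroid cells, and G1E-ER4+E2 is 1 clone of it in which estradiol (E2) activates a GATA1 and estrogen receptor fusion, so neither line is a primary cell and the second rests on a single clone. The 2 libraries of a type were either from different mice or from different aliquots of cells of the same mice, and the sources used here do not say which. Statistics therefore measure the spread between 2 libraries, part of which may be technical. A change in the share of cells with an open site and a change in how open it is in each cell cannot be told apart in such bulk libraries.

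For every library the deposited file lists called peaks, all of 150 bases in this locus, with a score of no stated unit, so a score is given with its percentile, the share of the same list that scores no higher. The lists held between 84341 and 230877 peaks in the primary types and between 52720 and 70306 in the cell lines. Relative depth, read from the step between scores, was 68.8% to 81.1% of the deepest library in CFUE and ERY, 40.2% to 100% in the other primary libraries and 22.3% to 27.0% in the cell lines. Promoters of the erythroid markers Klf1, Epor, Slc4a1 and Tfrc were called in each CFUE, ERY, MEP and cell line library, and that of Alas2 in each CFUE, ERY and G1E-ER4+E2 library but in no MEP or G1E library. Of 4 stem and progenitor markers, CMP and MEP libraries had 4 each, CFUE replicate 1 had 3, CFUE replicate 2 had 0 and each ERY library had 1. Of 4 granulocyte markers, both CMP libraries had 4, MEP had 2 and 1, and CFUE and ERY had 0 or 1, and of 3 monocyte markers CMP had 3, MEP 1 and CFUE and ERY 0 or 1, so these lists fell with the step from CMP to MEP, and their part in the results was not tested. Those of 3 B cell markers were called 3 of 3 in both NEU libraries and 0 of 3 in CFUE and ERY, and of 3 T and NK cell markers CFUE replicate 2 had Cd2 and the other CFUE and ERY libraries none.

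The sequences on which the locus turned lie beside Taar7 genes. The strongest CFUE peak between Taar7b and the pseudogene Taar7c-ps lay at chr10:24007144-24007293, and the sequence that aligns to it downstream of Taar7e at chr10:24040234-24040383. A diverged relative downstream of Taar7f, at chr10:24052171-24052320, was the strongest peak of MEP replicate 1 there. These are shown first because the clusters around the first 2 held most CFUE and ERY peaks of the Taar7b and Taar7d windows, and the third is their relative outside both windows. They are reference sequence (mm10, GRCm38.p6), plus strand, 5′ to 3′, and capitals mark the GATA words on either strand, which are AGATAA as well as TGATAA and the same words ending in G.
Taar7b to Taar7c-ps: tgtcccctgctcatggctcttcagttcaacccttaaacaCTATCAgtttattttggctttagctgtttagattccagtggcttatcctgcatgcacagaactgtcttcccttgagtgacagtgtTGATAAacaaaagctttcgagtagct
Taar7e: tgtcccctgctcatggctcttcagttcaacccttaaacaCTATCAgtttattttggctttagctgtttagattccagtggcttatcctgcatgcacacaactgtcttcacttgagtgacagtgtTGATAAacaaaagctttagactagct
Taar7f: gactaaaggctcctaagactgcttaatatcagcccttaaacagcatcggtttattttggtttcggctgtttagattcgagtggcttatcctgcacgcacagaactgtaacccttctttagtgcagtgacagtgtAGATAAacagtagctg

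The first 2 sequences were identical at 146 of 150 bases (97.3%) and held 2 GATA words each, at positions 40 and 125 counted from the first base. The Taar7f sequence aligned to the first over 121 columns with 81.8% identity and held 1 GATA word, at position 135. Of the 30-base words of each of the first 2 sequences, 58.7% occurred more than once in the genome, so reads of 30 bases from those words had more than one place to map, and the part of this in the peak numbers was not tested. No 30-base word of the Taar7f sequence was repeated.

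Beside Taar4, the member with a peak over its own coding exon in the most libraries, the strongest peak lay at chr10:23960647-23960796 in GMP replicate 1. It is shown because it was called in a different set of cell types. It held no GATA word, and capitals mark the RUNX word TGTGGT, here on the minus strand.
Taar4: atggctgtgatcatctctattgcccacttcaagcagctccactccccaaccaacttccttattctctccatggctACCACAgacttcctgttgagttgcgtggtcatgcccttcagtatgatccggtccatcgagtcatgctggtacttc

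Higher numbers of called peaks in CFUE and ERY were seen in Taar7b and Taar7d and not in the other 7 members. Per 100000 called peaks, the mean over CFUE and ERY was above that of the other 8 primary types in 6 of the 9 members (66.7%) and in 57.9% of all protein-coding genes. The Taar7b window held 11 and 11 peaks in CFUE and 11 and 9 in ERY. It held 11 and 11 in MEP, 4 and 2 in CMP, 4 and 5 in CFUMK, 3 and 1 in LSK, 1 and 0 in GMP, 1 and 0 in iMK, and 0 in MON and NEU. The Taar7d window held 16 and 12 peaks in CFUE and 13 and 12 in ERY. It held 11 and 14 in MEP, 5 and 2 in CMP, 5 and 7 in CFUMK, 3 and 0 in LSK, 1 and 0 in GMP, 1 and 1 in iMK and 0 in MON and NEU. For both genes the CFUE and ERY libraries lay above the libraries of every primary type other than MEP, and overlapped MEP. The 2 windows share sequence, so that 28 of the 42 Taar7b peaks and of the 53 Taar7d peaks of CFUE and ERY were the same peaks.

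**Figure D1:**
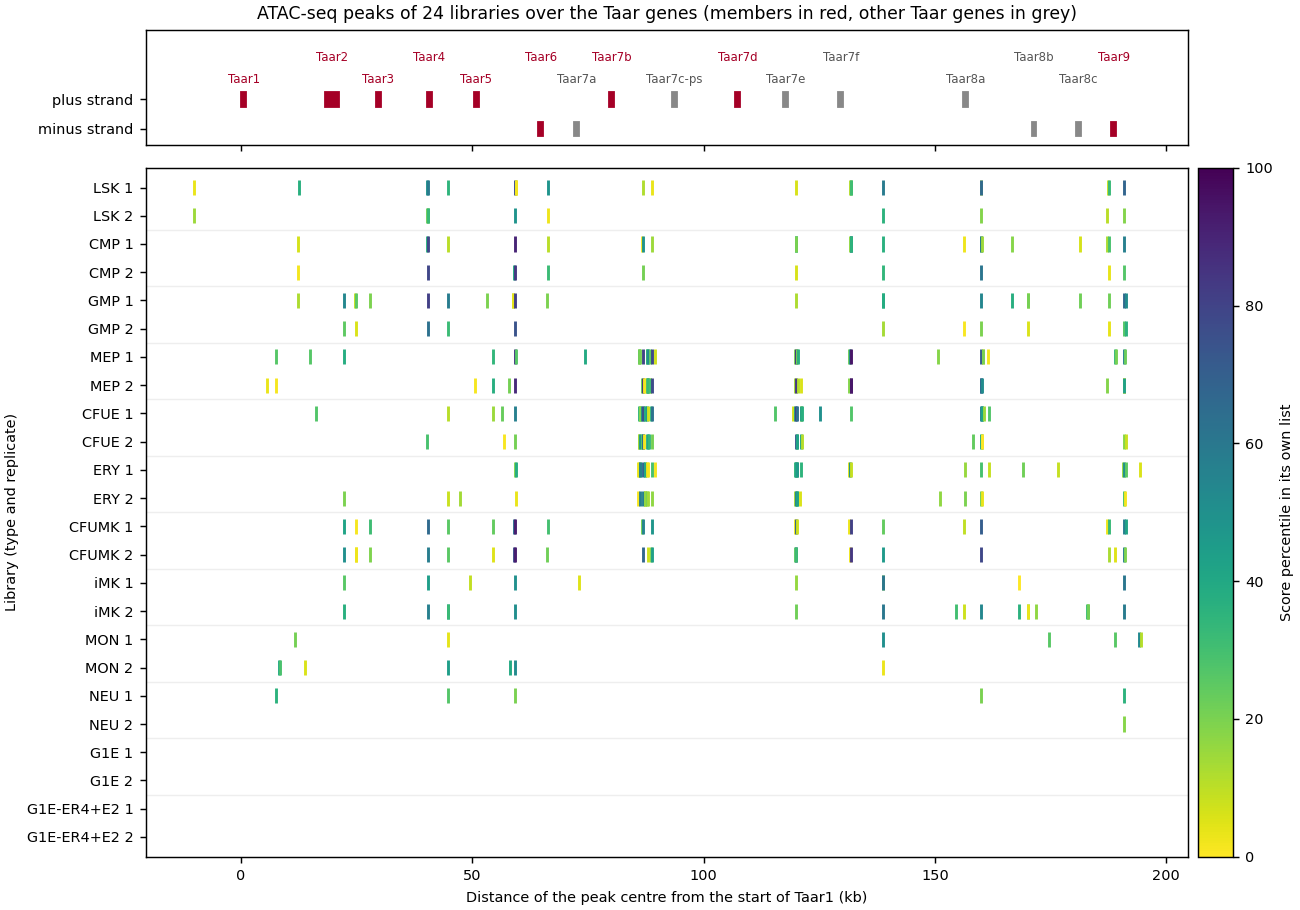
The upper panel shows the Taar genes by strand and the lower panel each called peak of the 24 libraries by its distance in kb from the start of Taar1, coloured by score percentile in its own list. Between Taar7b and Taar7c-ps the MEP, CFUE and ERY libraries have rows of 9 to 11 peaks, and the 4 cell line rows are empty.

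In the other members no CFUE or ERY library held more called peaks than the highest progenitor library. Taar2, the receptor gene nearest to Taar1, had 0 or 1 peak in each CFUE and ERY library, against 2 to 6 in LSK, CMP, GMP and CFUMK. Taar4 had 4, 3, 2 and 4 peaks in the CFUE and ERY libraries, 10 and 5 in GMP, 8 and 9 in CFUMK, and 3 to 6 in LSK, CMP and MEP. Taar5 had 4, 3, 2 and 3 peaks in CFUE and ERY and 3 to 7 in LSK, CMP, GMP, MEP and CFUMK. Taar1 had no more than 3 peaks in any library and 1 in the 4 CFUE and ERY libraries together. Taar3, Taar6 and Taar9 had 0 to 3, 2 to 4 and 0 to 6 peaks in CFUE and ERY. The values of Taar1, Taar3, Taar4, Taar5, Taar6 and Taar9 in these libraries overlapped those of the progenitors.

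**Figure D2:**
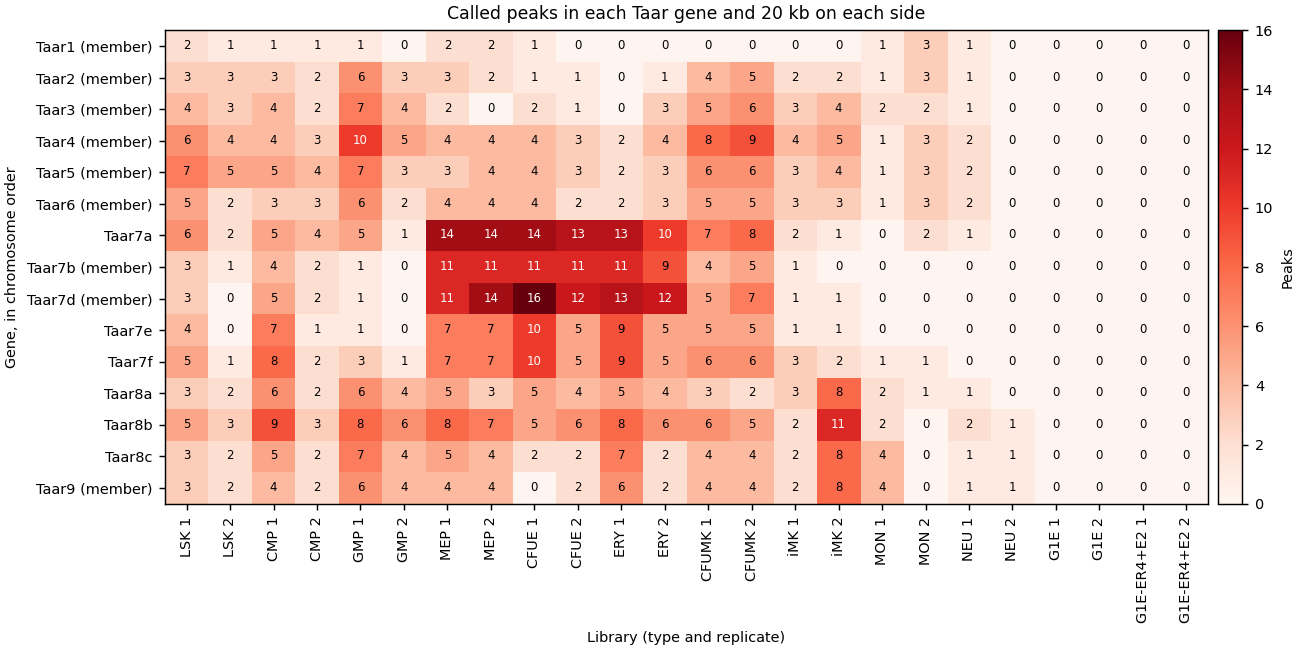
The heat map gives the number of called peaks in each protein-coding Taar gene and 20 kb on each side (rows, in chromosome order) for each library (columns), with the number printed in each cell. High numbers form a block of Taar7a, Taar7b and Taar7d in MEP, CFUE and ERY, with a maximum of 16 in Taar7d in CFUE replicate 1.

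Of the 9 members, 4 (Taar4, Taar5, Taar7b and Taar7d) passed the filter of a mean of 3 peaks over the 24 libraries, and 5 did not. On the log2 scale, after adding 1 peak as a prior and scaling to 100000 called peaks, CFUE and ERY differed from the mean of the other 8 primary types by 2.82 ± 0.28 (SE) in Taar7b and 3.05 ± 0.28 in Taar7d. The differences were 0.41 ± 0.26 in Taar4 and 0.44 ± 0.27 in Taar5, with a median of 0.34 over all 17047 genes tested. By the call used for other contrasts 2 of the 4 members were higher and 0 lower, where 45.3% of all genes were called higher and 16.5% lower, and nothing is read from the count because this contrast chose the genes. Without the scaling to 100000 peaks, Taar7b and Taar7d stood at 2.21 and 2.43, whereas Taar4 and Taar5 turned to -0.20 and -0.17, as the median of all genes turned to -0.28.

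The step from CMP to MEP compares 2 types that stood on the same side of the contrast behind the choice, and was tested with the limit that Taar7b and Taar7d passed the filter through the types in which they are high. Their means were 2.15 and 2.5 peaks without the CFUE and ERY lists, and 2.86 and 3.55 without the MEP lists. Without the MEP, CFUE and ERY lists together they were 1.17 and 1.39, so both genes passed only through these types. The p-values are therefore given as a description. Taar7b went from 4 and 2 peaks to 11 and 11, and Taar7d from 5 and 2 to 11 and 14, so that the groups did not overlap. The log2 difference was 2.02 ± 0.507 (SE) for Taar7b with an adjusted p of 0.0159 and 2.05 ± 0.503 for Taar7d with an adjusted p of 0.0129 (limma across all genes, two-sided, Benjamini-Hochberg). That is 2 of 4 members, where 2.02% of all genes were called higher and 2.01% lower, and nothing is read from the count because of the filter. With no filter, all 9 members could be fitted, and the adjusted p over 21070 genes was 0.00544 for Taar7b and 0.00618 for Taar7d (limma), with no other member called. The 2 genes count many of the same peaks. Taar4 (0.55 ± 0.47) and Taar5 (0.10 ± 0.48) were not called.

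Both calls were lost with limma when CMP replicate 2 was left out (adjusted p of 0.161 and 0.181 for Taar7b and Taar7d) or MEP replicate 2 was left out (0.12 and 0.157). Without MEP replicate 1 the adjusted p was 0.0854 for Taar7b and 0.0489 for Taar7d. A prior of 0.5 peak gave an adjusted p of 0.0902 and 0.0861 by limma, and unscaled numbers gave 0.0643 and 0.0860. Over all alternatives in which they could be tested, adjusted p ran from 0.000793 to 0.161 for Taar7b and from 1.14e-12 to 0.181 for Taar7d. The lowest value came from counting only peaks seen in both replicates, which makes the replicates share their counts.

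From MEP to CFUE and from CFUE to ERY, the peak numbers of the libraries overlapped in the Taar7b and Taar7d windows. From MEP to CFUE, which stood on opposite sides of the contrast behind the choice, Taar7b differed by 0.50 ± 0.507 (SE) and Taar7d by 0.65 ± 0.503 on the log2 scale, a description with no test. Of the 4 members 0 were called there, where 3.7% of genes were called higher and 5.5% lower, and nothing is read from that count. From CFUE to ERY the differences were 0.04 ± 0.507 (SE) in Taar7b and 0.03 ± 0.503 in Taar7d, -0.04 ± 0.47 in Taar4 and -0.20 ± 0.48 in Taar5. There 0 of 4 members were called by limma, 0 had an unadjusted p under 0.05, and 0.698% of genes were called higher and 1.04% lower. The SE of about 0.5 leaves differences of 1 log2 unit in either direction within 2 SE. In simulated data of the step from CMP to MEP over 17047 genes, the fit found 46% of those with a 4-fold rise and 4% of those with a 2-fold rise.

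In the cell lines the locus was empty. None of the 4 lists held a peak in the 229.2 kb, so no fold or test is given from G1E to G1E-ER4+E2. The lists of the lines started at scores of 2.40 to 2.86, and 71 of the 111 CFUE and ERY peaks and 52 of the 64 MEP peaks over the locus scored 2.86 or more in their own lists. The lines were also sequenced less deeply, and how many of these peaks would have been called at the depth of the lines was not tested.

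Within the Taar7 stretch most peaks stood in 3 places, none of which touched a member. The cluster between Taar7b and Taar7c-ps (chr10:24006051-24009896) ends 3574 bp before the start of Taar7c-ps and was intergenic. It held 11 and 11 peaks in CFUE, 11 and 9 in ERY, 10 and 11 in MEP, 3 and 4 in CFUMK, 3 and 1 in CMP, 2 and 0 in LSK and 0 in all other libraries. The cluster 822 bp downstream of Taar7e (chr10:24039512-24041743) held 7 and 5 peaks in CFUE, 6 and 5 in ERY, 4 and 4 in MEP, 3 and 3 in CFUMK, 3 and 1 in CMP and 0 or 1 in the others. The cluster downstream of Taar7f (chr10:24051654-24052388) held 3 and 3 in MEP, 2 and 2 in CFUMK, 4 and 0 in CMP, 3 and 0 in LSK and in ERY, 1 and 0 in CFUE and 0 in the others. The peaks of 150 bases lay side by side or overlapped within each cluster, so their number reflects the length of open sequence as well as the number of sites.

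The first 2 clusters are copies of each other. A stretch of 1868 bp of the first (chr10:24006799-24008666) aligned to 1859 bp beside Taar7e (chr10:24039884-24041742) with 88.1% identity over 1899 columns. CFUE and ERY had 24 peaks with their centre in the first stretch and 22 in the copy, and 14 of the 22 fell within 75 bp of the matching place of a peak of the same library in the first. MEP had 12 and 8, of which 5 matched. Of the 30-base words of the first stretch, 19.6% occurred unchanged in the copy and 56.4% with up to 2 mismatches. A further relative downstream of Taar7d (chr10:24029303-24029882, 72.3% identity over a part that ends before the printed sequence) held no peak in any list.

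Within the printed sequences MEP, CFUE, ERY and CFUMK libraries differed by copy. Over the sequence between Taar7b and Taar7c-ps the strongest peak scored 12.9 and 10.2 in CFUE (percentiles 76.0 and 64.9), 10.9 and 8.46 in ERY (67.4 and 56.3), 12.1 and 16.6 in MEP (80.1 and 84.6) and 8.30 and 12.3 in CFUMK (55.1 and 67.0). CMP had percentiles of 48.1 and 21.0, LSK replicate 1 had 11.9, and the other libraries had no peak. Downstream of Taar7e the CFUE percentiles were 81.8 and 71.5 and the ERY percentiles 53.8 and 54.9, beside 84.8 and 83.7 in MEP and 67.4 and 69.0 in CFUMK. Downstream of Taar7f MEP had its highest peaks of the locus, with scores of 31.7 and 32.3 (94.5 and 93.9), and CFUMK had 19.0 and 23.6 (81.2 and 84.2). There CFUE had no peak over at least 75 bp of the sequence in either library, and ERY had 1 in replicate 1 at percentile 8.77 and none in replicate 2. CMP replicate 1 had 50.5 and LSK replicate 1 had 30.6. In the wider merged element CFUE replicate 1 reached 27.2 and ERY replicate 1 reached 49.6, still under the 4 MEP and CFUMK libraries, and no test was made of this difference.

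**Figure D3:**
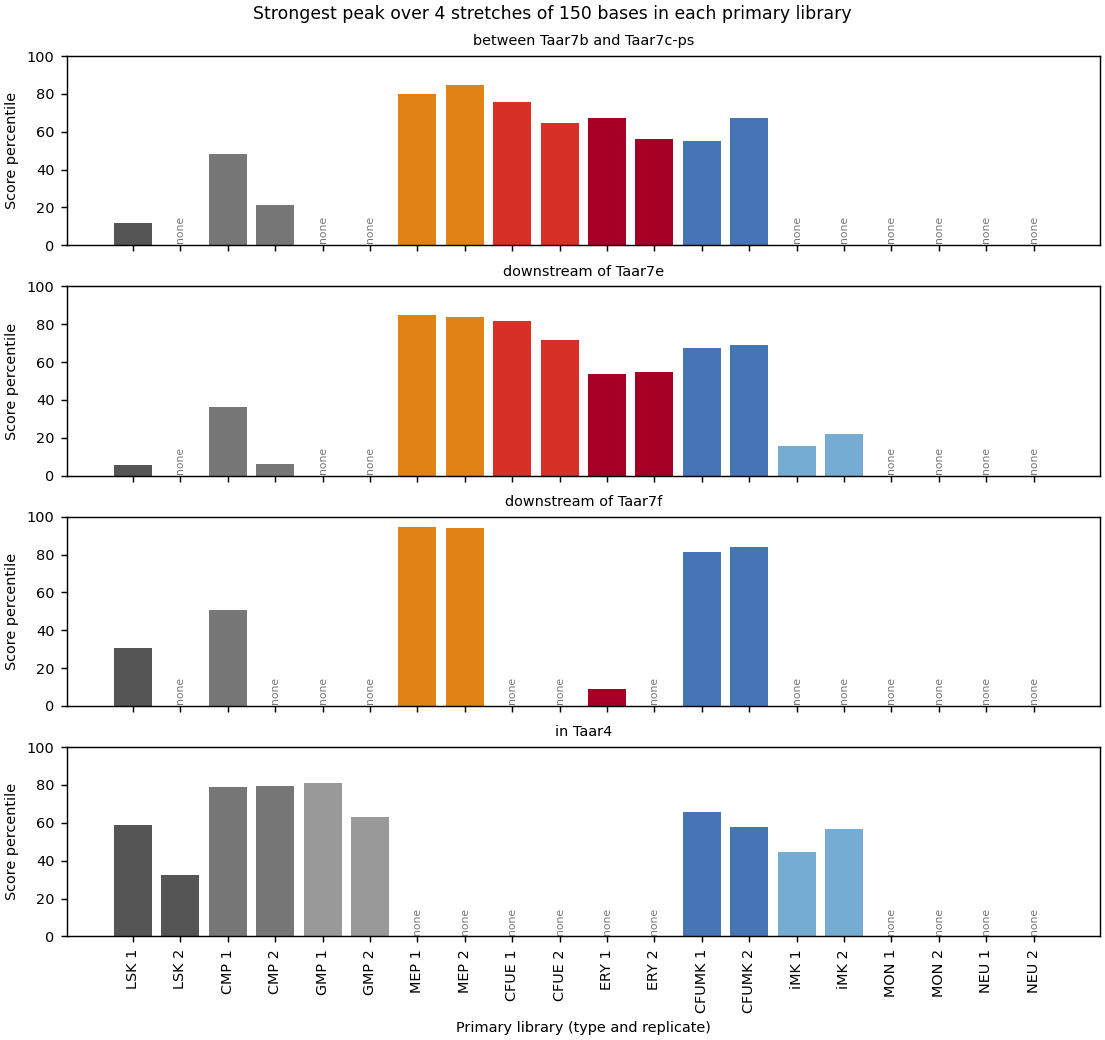
Bars give the score percentile of the strongest peak over each of 4 printed sequences of 150 bases in each primary library, and "none" marks a library with no peak. The sequences between Taar7b and Taar7c-ps and downstream of Taar7e are high in MEP, CFUE, ERY and CFUMK, that downstream of Taar7f in MEP and CFUMK, and that in Taar4 in LSK, CMP, GMP, CFUMK and iMK.

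The peak in Taar4 was called in another set of types, of which CFUMK, CMP, iMK and LSK also had peaks at Taar7 sequences. LSK had them in replicate 1 only, and iMK only downstream of Taar7e, at percentiles of 15.7 and 21.8. The sequence in Taar4 had percentiles of 58.7 and 32.7 in LSK, 79.1 and 79.2 in CMP, 80.9 and 63.1 in GMP, 65.8 and 58.0 in CFUMK and 44.5 and 56.8 in iMK. No MEP, CFUE, ERY, MON or NEU library had a peak over at least 75 bp of it, and CFUE replicate 2 had a weaker peak (29.1) elsewhere in the same merged element. Within 500 bp of a gene start, Taar4 had a peak in 11 libraries, Taar9 in 3, Taar5 in 1, and Taar1, Taar2, Taar3, Taar6, Taar7b and Taar7d in none. The members with most erythroid peaks therefore had no peak at their own starts in any of the 24 lists.

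Other sites were shared more widely. An element between Taar5 and Taar6 (chr10:23979336-23979615) was called in 17 libraries, with percentiles of 91.9 and 92.0 in CFUMK, 84.4 and 88.0 in MEP and 89.5 and 83.7 in CMP, against 56.9 and 20.9 in CFUE and 18.8 in ERY replicate 1 alone. Elements downstream of Taar8a (chr10:24080213-24080846) and upstream of Taar9 (chr10:24111052-24111721) were called in 16 and 17 libraries. At the first of these ERY had percentiles of 29.6 and 22.2, against 71.4 and 76.2 in MEP. In all, the peaks of the 24 lists merged into 75 elements, of which 36 were called in 1 library and 30 in both libraries of at least 1 type. Of the 15 elements called in both libraries of CFUE or ERY, 8 were also in both MEP libraries, 6 in both CFUMK libraries, and 7 in both libraries of no type other than CFUE or ERY.

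The erythroid peaks were weak to middling in score. The median percentile of the locus peaks was 34.1 and 26.6 in CFUE and 24.7 and 16.7 in ERY, against 26.5 and 23.1 in MEP, and in the other primary libraries it ran from 18.3 to 39.2. By this score ERY replicate 2 was the lowest of all these libraries, and the other 3 CFUE and ERY libraries lay within the range of the rest. Of the 111 CFUE and ERY peaks 18 scored above the median of their list, and of the 64 MEP peaks 19. The highest percentile was 81.8 and 71.5 in CFUE and 67.4 and 57.7 in ERY, against 94.5 and 93.9 in MEP and 91.9 and 92.0 in CFUMK. Ranked among peaks over 1 kb from a transcript start, the mean of the 4 medians rose from 25.5 ± 7.16 (SD, n = 4 libraries) to 36.4. By a second deposited score column that mean was 30.6, from 23.1 in ERY replicate 2 to 42.3 in CFUE replicate 1. The other primary libraries ran from 17.2 to 37.2 by that column, so CFUE replicate 1 stood above them and ERY replicate 2 was not the lowest.

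**Figure D4:**
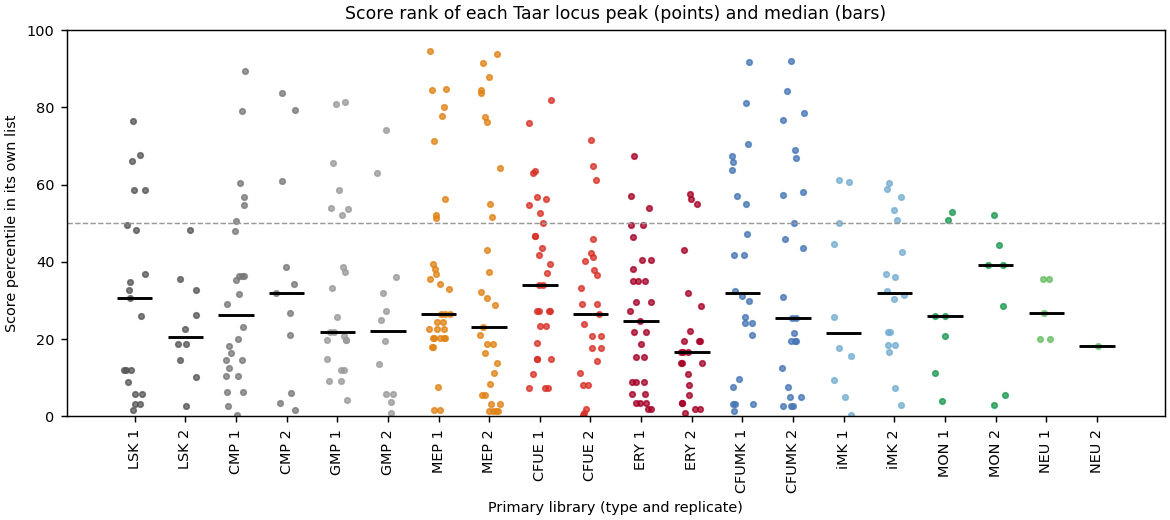
Each point is a called peak over the Taar locus, by its score percentile in its own list, for each primary library, and black bars mark the median. Medians lie between 16.7 and 39.2, under the dashed line of 50, and the top points of CFUE and ERY stay under those of MEP and CFUMK.

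Replicate overlap in CFUE and ERY was near or above that of the whole lists. Of the CFUE and ERY locus peaks 73 of 111 (65.8%) had at least 1 bp in common with a peak of the second library of their type. By library this was 58.1% and 72.0% in CFUE and 61.3% and 75% in ERY, beside 49.8%, 66.2%, 61.3% and 67.7% of all peaks of these 4 lists. In MEP it was 39 of 64 (60.9%), with 54.5% and 67.7% beside 71.3% and 74.4% of the whole lists. Most locus peaks scored at or below the median of their list. Of all such peaks, 48.7% and 57.6% overlapped in MEP, 14.5% and 39.8% in CFUE and 30.8% and 43.7% in ERY, under the locus shares. From Taar1 to Taar6, 1 peak in each CFUE and ERY library overlapped (of 5, 3, 2 and 4). From Taar7a to Taar7f 14, 14, 14 and 13 did (of 21, 16, 20 and 14). Centres within 500 bp of one another raised the erythroid share to 78.4%, and the MEP peaks from 18 and 21 to 23 and 26. At least 75 bp in common lowered the overlapping peaks from 18 and 18 to 15 and 16 in CFUE. In ERY they fell from 19 and 18 to 17 and 16, and in MEP to 15 and 17.

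How many peaks the locus held depended on the scale. CFUE had 31 and 25 peaks, ERY 31 and 24 and MEP 33 and 31, with 24 and 25 in CFUMK, 26 and 11 in CMP, 23 and 12 in GMP, 21 and 10 in LSK, 10 and 18 in iMK, 7 and 7 in MON and 5 and 1 in NEU. Per 100000 called peaks CFUE and ERY had 25.4 on average and the other 8 primary types 9.12, a ratio of 2.79. The ratio was 1.68 with unscaled numbers and 1.79 with peaks within 500 bp joined into one, scaled to 100000 joined peaks of each list. It was 1.67 among peaks above the median of each list and 1.93 among an equal number of strongest peaks. Of these strongest peaks MEP, 1 of the 8 types, had 6 and 7, CFUE 4 and 3 and ERY 3 and 3. CFUMK had 2 and 4, and the remaining primary libraries 0 to 2. Per 100000 peaks above the list median MEP had 10.9 and 12.5, CFUE 13.4 and 6.02, ERY 5.56 and 6.13 and CFUMK 7.94 and 9.07. The remaining primary libraries had 0 to 6.05. Joined peaks numbered 13 and 10 in CFUE and 14 and 11 in ERY, against 16 and 10 in CMP, 17 and 12 in MEP and 17 and 18 in CFUMK, so unscaled joined numbers overlapped. Per 100000 joined peaks of the whole list, the locus held 16.1 and 18.3 in CFUE and 21.0 and 22.5 in ERY. It held 14.4 to 17.8 in MEP and 14.1 and 15.3 in CFUMK, and only MEP overlapped CFUE. As called, the stretch from Taar1 to Taar6 held 2 to 5 peaks in each CFUE and ERY library and 5 to 12 in LSK, CMP and GMP, and that from Taar8a to Taar9 held 5 to 9 and 3 to 9.

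**Figure D5:**
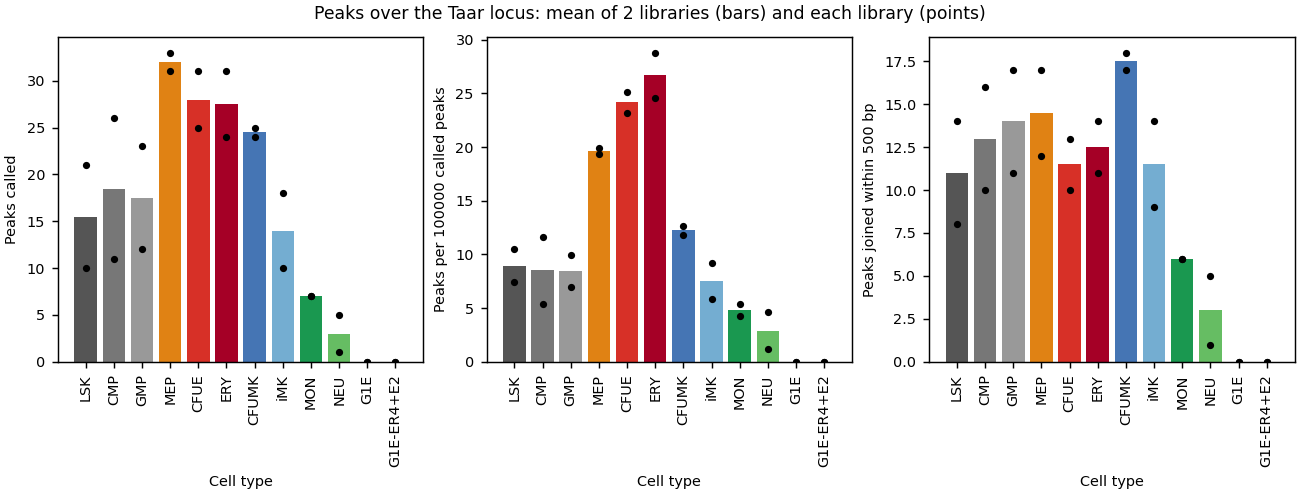
The 3 panels give the peaks over the Taar locus in each cell type as called, per 100000 called peaks, and after joining peaks within 500 bp, with bars for the mean of 2 libraries and points for each library. CFUE and ERY stand highest per 100000 (23.2 to 28.8), and in the panel of joined peaks, which is not scaled, CFUMK has 17 and 18.

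The sequence under the erythroid peaks was set beside that of all peaks of chromosome 10 in the same lists. GATA words were in 40 of 111 CFUE and ERY locus peaks (36.0%) and in 22.9% of the 22390 chromosome 10 peaks of the same lists. In MEP they were in 16 of 64 (25.0%) against 32.2%. Overlapping peaks and the 2 copies share the same words, so these are not independent sites. Median GC content was 46.7% against 52.0%, and 61 of 111 erythroid locus peaks (55.0%) held a 30-base word that is repeated in the genome, against 14.9% of chromosome 10 peaks in these lists. In the other 14 primary libraries the share was 71 of 200 (35.5%) against 13.2%. The RUNX word was in 9.91% of the erythroid locus peaks and 11.4% of the chromosome 10 peaks.

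The genes of the olfactory signalling path moved in both directions. Of 19 genes for trace amine synthesis and breakdown and for olfactory transduction, 14 passed the filter. From CMP to MEP, where 2.02% of all genes were called higher and 2.01% lower, 0 rose and 1 fell, the olfactory neuron and B cell factor Ebf1, with 37.0 peaks on average in CMP and 13.5 in MEP (log2 difference -1.01 ± 0.255, adjusted p = 0.0170, limma). In CFUE and ERY against the other primary types 4 of 14 were called higher and 4 lower, beside 45.3% and 16.5% of all genes, with a median of 0.14. Unscaled, 1 was higher and 7 lower, with a median of -0.47, beside 904 higher and 6688 lower of all 17047 genes and a median of -0.28. The largest differences were those of Ebf1 (-1.14 ± 0.14 SE), Gnal (1.07 ± 0.14), Gng13, a G protein gamma subunit of chemosensory cells (0.66 ± 0.20), and Ddc, which makes trace amines from amino acids (0.64 ± 0.14), and their unscaled values were -1.76, 0.46, 0.04 and 0.02. No gene of the list was called from CFUE to ERY.

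Among chemoreceptor families, the other protein-coding Taar genes share peaks with the members. Of these 6 genes 3 passed the filter (Taar7a, Taar7f and Taar8b), with a median of 1.82 in CFUE and ERY against the other primary types, and of 1.20 unscaled. The other chemoreceptor families were mixed. Of 1135 olfactory receptor (Olfr) genes 91 passed the filter, and 39 were higher and 18 lower, near the shares of all genes (45.3% and 16.5%), with a median of 0.31. Unscaled, 11 were higher and 34 lower, with a median of -0.30, beside 904 higher and 6688 lower of all 17047 genes and a median of -0.28. The vomeronasal families Vmn1r and Vmn2r had medians of 0.95 and 1.10 over 10 and 6 genes (0.34 and 0.49 unscaled), and the taste receptors Tas2r a median of -1.47 over 6 genes (-2.08 unscaled). With no filter, the log2 median over all 35 Tas2r genes was 0.52, with 20 higher and 6 lower, on values that include the prior. Of all 21070 genes 9332 were then called higher and 3164 lower, with a median of 0.36. Without the prior, the mean per 100000 called peaks over these 35 genes was 0.42 in CFUE and 0.29 in ERY. It was 0.26 in MEP and 0.65 to 1.18 in the other primary types. By this mean 14 of the 35 were higher in CFUE and ERY, so the direction over all 35 depended on the measure. These families are clustered in the genome, so their genes share peaks.

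The genes whose peak numbers followed the 4 members tested most closely over the 12 type means were Agtr1a (Pearson r = 0.983), Gm17332 (0.980), Zdhhc15 (0.960), Megf11 (0.950), Lyrm4 (0.942) and Acnat1 (0.941). These are descriptions over 12 types that share scaling and the low depth of the cell lines. Agtr1a, an angiotensin receptor gene, had 20 and 18.5 peaks on average in CFUE and ERY, 16 in MEP, 12.5 in CFUMK, 8.5 in CMP and 0 in both cell lines. Zdhhc15, a palmitoyltransferase gene, had 27 and 32 in CFUE and ERY, 28.5 in MEP, 15.5 in CFUMK, 13.0 in CMP and 0 in both lines. High numbers in MEP, CFUE and ERY with none in the lines were thus also seen at other genes.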

How the data were processed

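By the methods of the study and the notes of the submitters, the authors cut reads to 30 bases, aligned them to mm10 with Bowtie 0.12.8 while allowing reads with several places, removed mitochondrial and unplaced contigs with SAMtools (1.6 in the notes), and called peaks with HOMER in each library by itself. The deposited score of each peak has no stated unit and was used as a rank within its list, for relative depth (the inverse of the step between scores, which rests on all lists having one total), and once across lists, against the lowest scores of the cell line lists. A second deposited score column served as an alternative rank. Peaks in each gene and 20 kb on each side were counted, given a prior of 1 peak, then scaled to 100000 called peaks and put on the log2 scale. They were fitted with limma 3.58.1 (R 4.3.3, trend and robust) over all 24 libraries and the 17047 genes whose mean reached 3 peaks. Other priors, filters, windows, scalings and left-out libraries were tried. Replicates overlap at 1 bp. Words and alignments used mm10 and BLAST 2.17.0. Members and gene lists were chosen with earlier results of these data known. Named genes were all members, the 6 most alike over type means, and up to 4 per list by largest erythroid difference. No list of artefact regions was applied. One further erythroid marker is not reported here.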

Additional observations from a re-analysis of the deposited data

How the results depend on the processing

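The labels give no replicate numbers, but the library numbers of 7 types form 2 runs. The correlation between types of the difference between runs was from -0.175 to 0.253 over 21 pairs of types (median 0.0436, over 0.1 in 6 pairs). The highest, 0.253, was that of CMP and MEP, the step that was tested. The main fit did not pair libraries by run. With the run as a replicate block in these 7 types, 2 members were called from CMP to MEP, 2 in the erythroid contrast and 0 from CFUE to ERY. In the same order, 781, 8676 and 190 of all 17047 genes were called higher and 570, 2932 and 251 lower. The number of members called from CMP to MEP was 2 and became 0 with a prior of 0.5 peak, 1 with peaks of both replicates, where only Taar7d could be tested, and 0 with unscaled numbers. Leaving out 1 library gave between 0 and 2, with 0 without CMP replicate 2 or MEP replicate 2 and 1 without MEP replicate 1. These fits take the spread of the single library left in a type from the other types. With 50 kb on each side the windows of Taar4, Taar5 and Taar6 also take in the cluster between Taar7b and Taar7c-ps. Taar6 was then also called from CMP to MEP (limma, adjusted p = 0.0375), and 6 members were called in the erythroid contrast. Of all 18499 genes 8428 were called higher and 3075 lower in that contrast. With each library left out in turn, the erythroid log2 difference was 2.72 to 2.93 in Taar7b and 2.96 to 3.14 in Taar7d. That contrast chose the genes, so nothing is read from its stability or its calls. With peaks of both replicates 10461 of 15825 genes were called higher in it and 3828 lower. The number of members called in it was 2 in the main setting and 1 of 1 tested with peaks of both replicates. From CFUE to ERY it was 0 in every alternative that could be run. With 5 kb on each side, an equal number of strongest peaks or peaks within 500 bp joined, no member passed the filter, so these were not run. The ratio of locus peaks fell from 2.79 to 1.67 among peaks above the median of each list and 1.93 at equal number. It was 1.79 with joined peaks, 1.68 unscaled and 2.67 to 2.91 without a library. At equal number both MEP libraries stood above each CFUE and ERY library. The mean median percentile was 36.4 among distal peaks, 30.6 by the second score column and 22.7 to 28.5 without a library. Replicate overlap was 78.4% for centres within 500 bp, and with at least 75 bp in common it fell in each CFUE and ERY library. The block, joined, unscaled locus and second score alternatives were chosen after seeing the data. The cause of these changes was not tested.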

Other observations

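In CFUE and ERY the genes next to the locus differed from Taar7b and Taar7d, but some also had more peaks in MEP than in CMP. Vnn3, a pantetheinase gene of the vanin family on the Taar1 side, had 0.5 peaks on average in CFUE and in ERY, 10.0 in GMP and 10.5 in iMK, and a log2 difference of -1.59 ± 0.26 (SE) between CFUE and ERY and the other primary types. Slc18b1, a vesicular amine transporter gene on the same side, had 17.5 peaks in MEP, 11.5 in CMP and 7.50 in CFUE and in ERY, and the step from CMP to MEP was 0.95 ± 0.31 (limma, adjusted p = 0.0693). Stx7, a syntaxin gene on the Taar9 side, had 16.5 in CMP, 9.50 in MEP and 10.5 in CFUE. Both cell lines had peaks at Rps12, Slc18b1 and Stx7 (4.00 to 10.5 on average), so the absence of peaks in the lines did not extend to these 3 neighbours. At Vnn3 and Vnn1 both lines had 0, and at Moxd1, on the Taar9 side, G1E had 0 and G1E-ER4+E2 had 2.50.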
